A study of Homo sapiens with 8 samples.

Results

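The genes of heterotrimeric G-protein subunits were examined in MOLM-13 cells, a human acute myeloid leukemia cell line, after knockdown (KD) of the splicing factor PTBP1. The members were 10 genes, the alpha subunit genes GNA11, GNAQ, GNA15, GNA13, GNAI2, GNAI3 and GNAS, the beta subunit genes GNB1 and GNB2, and the gamma subunit gene GNG5, of 62639 genes in the annotation, 16474 of which had a count. The family was chosen by the counts of GNA11 in this same experiment, which were above 0 in the shPTBP1 libraries and at 0 in the shSCR libraries. The values of GNA11 in this comparison are therefore given as a description, without a test, and the other members were tested in a fit over all genes. The other 23 alpha, beta and gamma subunit genes were listed beside them, which makes 33 in all.

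A heterotrimeric G protein couples a receptor with 7 membrane passes to enzymes and channels inside the cell. The receptor makes the alpha subunit exchange GDP for GTP, after which alpha and the beta-gamma pair act on separate targets, and the alpha subunit ends the signal by cleaving GTP. Alpha subunits fall into classes by target: the Gq class activates phospholipase C beta, the Gs class activates adenylyl cyclase, the Gi class inhibits it, and the class of GNA12 and GNA13 acts on exchange factors of RhoA. In myeloid cells, receptors for chemokines and other chemoattractants signal largely through Gi.

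The long-read data came from 4 biological replicates with shPTBP1 and 4 with shSCR, a scrambled shRNA, all of them MOLM-13 cells kept on doxycycline for 9 days to induce the shRNA. A single shRNA against PTBP1 was used, so loss of PTBP1 and an effect particular to that shRNA cannot be told apart. Nanopore sequencing of cDNA gave the authors a count for each annotated transcript, and these counts were added up here per gene.

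The libraries held from 1528449 to 1613342 counts and 12322 to 12589 detected genes each. PTBP1 had 10, 15, 13 and 23 counts in the shPTBP1 libraries and 65, 90, 64 and 78 in the shSCR libraries, in the direction of the labels (log2 fold change -2.26, edgeR adjusted p = 7.18e-05). All 8 markers listed for MOLM-13 were detected, although SPI1 had at most 1 count and MEIS1 at most 5 per library, and their summed counts were from 731 to 947 after shPTBP1 and from 692 to 702 after shSCR. LYZ, with 2130 counts in all after shPTBP1 and 1708 after shSCR, holds most of that sum, while HOXA9 had 347 and 373 and FLT3 18 and 35. The part of that shift in the results given here was not tested. Of 9 markers of other cell types, 6 were at 0 in all libraries, and the 9 summed to at most 5 counts in any library. After edgeR's default filter 7597 genes were tested, and 5.54% of them were called at an adjusted p under 0.05, with 2.36% higher and 3.19% lower after shPTBP1.

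PTBP1 binds pyrimidine-rich RNA, often in the intron just before an exon, and the motifs TCTT and CTCTCT, in DNA letters, are widely used to describe its sites. The last 100 bases of each intron of at least 100 bases were read from the GRCh38 genome, in the main isoform of each member and on the transcribed strand alone. Shorter introns were left out. CTCTCT and TCTT were counted separately, and they overlap where CTCTCTT occurs. Over the main isoforms of 7357 tested genes, 66.3% of 67725 such windows held TCTT and 7.7% held CTCTCT. None of the 6 windows of GNA11 held either motif. TCTT was in 6 of 7 windows of GNAI3, 3 of 3 of GNA13, 3 of 6 of GNAQ, 2 of 7 of GNAI2 and 1 of 6 of GNA15. It was in 6 of 9 windows of GNAS, 7 of 11 of GNB1, 3 of 5 of GNB2 and 2 of 3 of GNG5. CTCTCT was absent from the windows of GNAQ, GNA13, GNA15, GNAI2, GNAI3 and GNG5 as well. The pyrimidine content of the GNA11 windows, with a median of 55.5%, was close to the median of 55.0% over all windows. A pair of windows, each picked as an extreme of its gene, is printed for GNA11 and GNAI3. The other windows of GNAI3 held from 0 to 2 TCTT. In the first, the window of GNA11 with the most pyrimidines, 66%, holds no TCTT. In the second, the window of GNAI3 with the most matches, capitals mark each TCTT, 4 in all.

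GNA11 before exon 4, chr19:3114844-3114943, plus strand: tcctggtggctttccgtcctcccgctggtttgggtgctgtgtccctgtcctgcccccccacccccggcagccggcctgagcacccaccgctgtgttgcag
GNAI3 before exon 4, chr1:109579104-109579203, plus strand: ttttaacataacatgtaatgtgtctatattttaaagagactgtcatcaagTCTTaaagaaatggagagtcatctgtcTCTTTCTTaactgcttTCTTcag

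These matches describe letters in the genome. Binding of PTBP1 to the windows was not tested. The main isoform had 62.9% GC in GNA11 and 38.1% in GNAI3, and the part of base composition in the matches was not tested.

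GNA11 encodes an alpha subunit of the Gq class, which passes receptor signals to phospholipase C beta. It was counted 24, 17, 20 and 15 times in shPTBP1 replicates 1 to 4 and 0 times in each of the 4 shSCR replicates. Every shPTBP1 library was thus above every shSCR library, with a mean of 12.3 ± 2.41 normalized counts per 1000000 (CPM; SD, n = 4) after shPTBP1. A count of 0 allows up to 3 counts over the shSCR group, and against that limit the level after shPTBP1 was 25.7-fold higher. This ratio takes the 76 counts after shPTBP1 as exact. It describes the counts that chose the family and is not an estimate of the smallest effect. Of its 76 counts, 73 were assigned to the protein-coding isoform GNA11-201 (7 exons, chr19:3094362-3123999) and 3 on GNA11-206, which keeps an intron. The antisense lncRNA genes that overlap GNA11 in the annotation had no count. GNA11 passed the filter on low counts through its shPTBP1 libraries alone. In RNA from a bulk culture, more cells with a transcript and more of it per cell cannot be told apart.

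Among the 8916 genes with at least 10 counts in a library, GNA11 was the only gene at 0 in all libraries of 1 group and at 10 counts or more in each library of the other, 0.0112% of them. This is the pattern by which the family was chosen, so its rarity is a description and not a test of GNA11. A count of 0 beside clear counts also occurred within groups. In the shSCR group, 63 genes were at 0 in 1 library and at 10 counts or more in the other 3, and in the shPTBP1 group 64 genes were. S1PR2, a sphingosine-1-phosphate receptor named here after its values were seen, had 41, 47, 49 and 0 counts in the shPTBP1 libraries and 56, 0, 0 and 56 in the shSCR libraries. The part of such dropouts in the values of GNA11 was not tested.

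The 5 tested genes outside the lists whose log2 CPM followed GNA11 most closely over the 8 libraries were PTBP2 (Pearson r = 0.992), ARL6IP1 (0.987), RBM39 (0.982), PIGT (0.980) and ANXA7 (0.973). The 8 points form a high group of shPTBP1 libraries and a low group of shSCR libraries, so these coefficients describe the difference between the groups more than any order within them. PTBP2, the neuronal paralog of PTBP1, had 185 to 199 counts per shPTBP1 library and 1 to 4 per shSCR library, a low level where GNA11 was at 0.

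**Figure D1:**
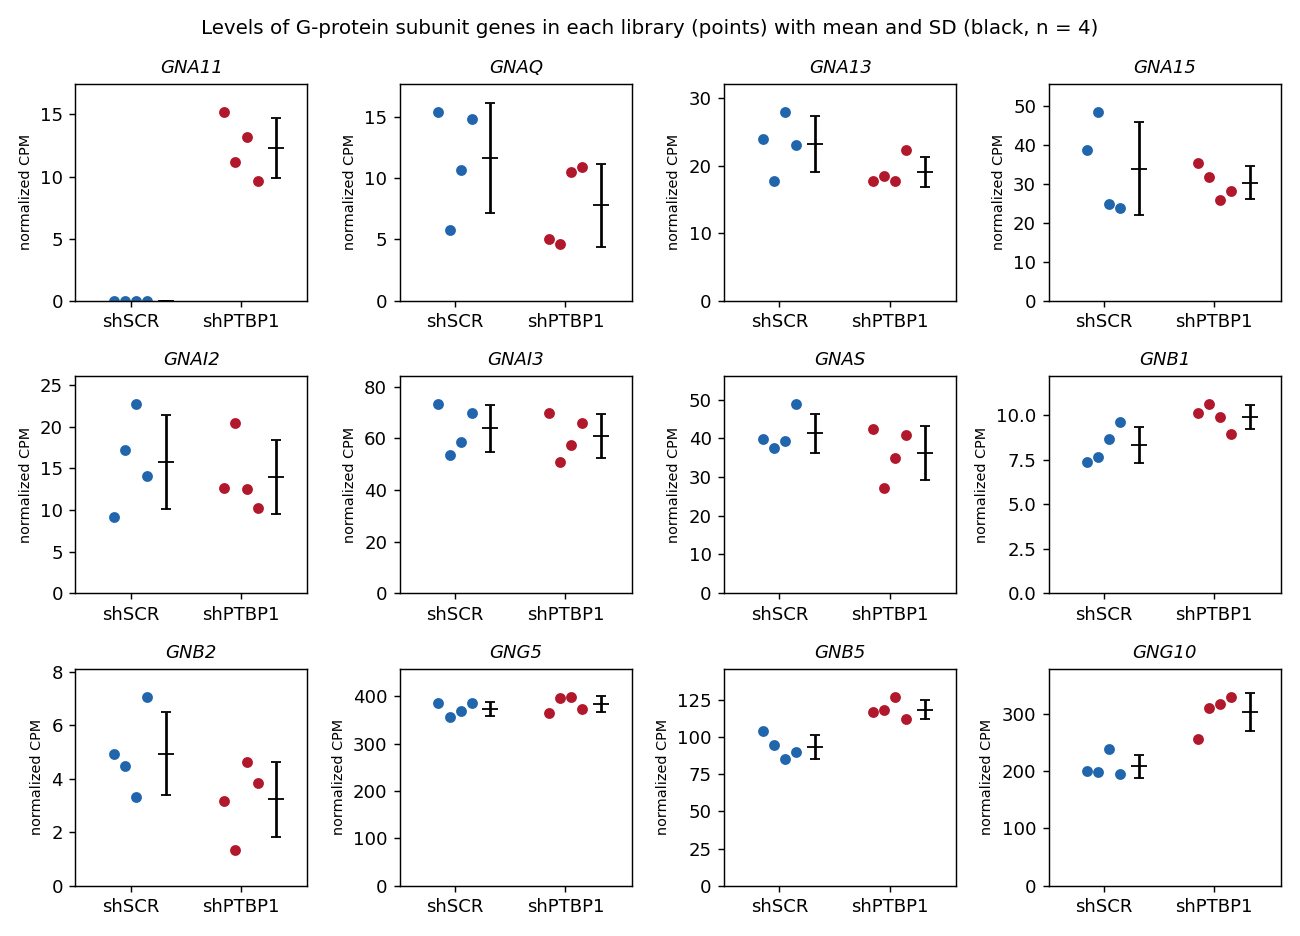
Normalized CPM (vertical axes, linear and starting at 0) of the 10 member genes and of GNB5 and GNG10 in each library, with the 4 shSCR (blue) and 4 shPTBP1 (red) libraries of each panel as points and their mean and SD in black. GNA11 lies between 9.60 and 15.2 CPM after shPTBP1 and at 0 after shSCR, the groups overlap for each of the other 9 members, and GNB5 and GNG10 do not overlap.

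The Gq class also holds GNAQ, the closest relative of GNA11, GNA15, which is found mainly in blood cells, and GNA14. GNAQ had 8, 7, 16 and 17 counts after shPTBP1 and 25, 9, 16 and 23 after shSCR. The groups overlapped, with means of 7.78 ± 3.39 and 11.6 ± 4.45 CPM, and the log2 fold change of -0.58 (SE 0.37) had an edgeR adjusted p of 0.429. Its 95% interval, from -1.30 to 0.14, covers a fall by more than a factor of 2 as well as no change. GNA15, which lies next to GNA11 on chromosome 19, had 56, 48, 39 and 44 counts after shPTBP1 and 63, 76, 37 and 37 after shSCR. Its shSCR libraries spanned those of shPTBP1 on both sides, at 33.9 ± 11.9 against 30.2 ± 4.25 CPM (log2 fold change -0.17, SE 0.22, edgeR adjusted p = 0.745). GNA14 was below the filter, with 13 counts in all after shPTBP1 and 31 after shSCR, a ratio of 0.425 with a 95% counting interval from 0.204 to 0.836. Of those 31 counts 14 came from shSCR replicate 2, and the groups overlapped. In a fit without the filter on low counts GNA14 was not called (log2 fold change -1.20, edgeR adjusted p = 0.324).

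As a description of the counts that chose the family, GNA11 held 26.4%, 22.1%, 25.6% and 19.2% of the Gq class counts in shPTBP1 replicates 1 to 4 and none in the shSCR libraries, where the class had 59 to 99 counts. Summed over the class, the level was 52.4 ± 3.48 CPM with shPTBP1 and 50.5 ± 11.4 with shSCR. Without GNA11 it was 40.1 ± 1.75 and 50.5 ± 11.4, and the ranges overlapped in both cases. The shSCR libraries differed most among themselves, from 39.3 CPM in replicate 3 to 63.0 in replicate 2.

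**Figure D2:**
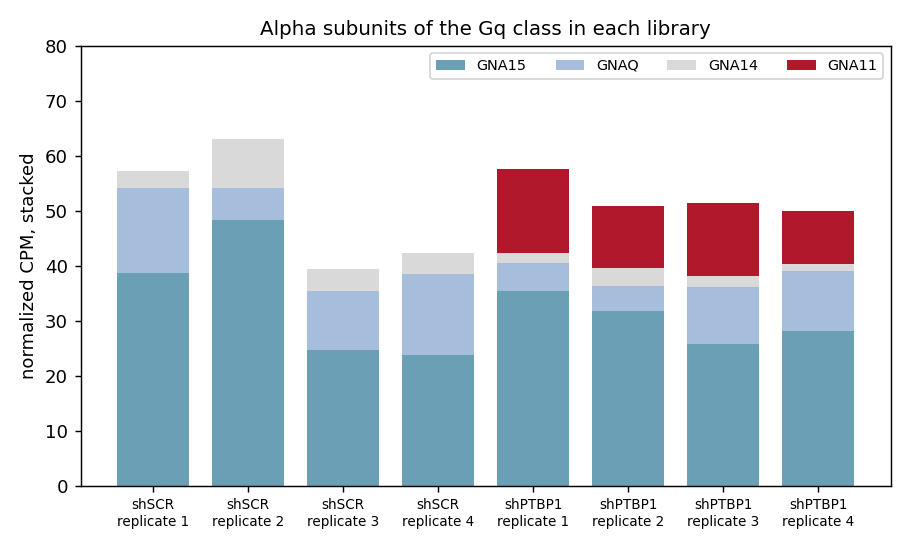
Stacked bars of the normalized CPM (vertical axis) of the Gq class alpha subunit genes in each of the 8 libraries (horizontal axis). GNA11 is present in the 4 shPTBP1 bars alone, while the whole bars reach from 49.9 to 57.6 CPM after shPTBP1 and from 39.3 to 63.0 after shSCR.

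GNA13 and GNA12 encode the alpha subunits that act on the RhoA exchange factors. GNA13 had 28, 28, 27 and 35 counts after shPTBP1 and 39, 28, 42 and 36 after shSCR. The means were 19.1 ± 2.23 and 23.2 ± 4.19 CPM, and the groups overlapped at shSCR replicate 2 (log2 fold change -0.28, SE 0.19, edgeR adjusted p = 0.451). GNA12, which is outside the 10 members, had 1, 2, 0 and 0 counts after shPTBP1 and 15, 6, 17 and 0 after shSCR. It did not pass the filter. The totals of 3 and 38 counts give a ratio of 0.0800 with a 95% counting interval from 0.0158 to 0.252, and shSCR replicate 4, at 0, lies with the shPTBP1 libraries. In a fit without the filter GNA12 was called lower (edgeR adjusted p = 0.00954). All 38 shSCR counts were on GNA12-201, which had no count after shPTBP1.

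GNAI3 and GNAI2 are the Gi alpha subunits of most blood cells and inhibit adenylyl cyclase. GNAI3 had 110, 77, 87 and 103 counts after shPTBP1 and 119, 84, 88 and 109 after shSCR, nearly the same spread in both groups. The difference of -0.07 on the log2 scale (SE 0.13) was not called (edgeR adjusted p = 0.844), with a 95% interval from -0.32 to 0.19. GNAI2 had 20, 31, 19 and 16 counts after shPTBP1 and 15, 27, 34 and 22 after shSCR, with overlap throughout (log2 fold change -0.17, SE 0.29, edgeR adjusted p = 0.813). At this depth its interval runs from -0.74 to 0.39, so a moderate change in either direction was not detectable. Of the other genes of the class, GNAI1, GNAZ and GNAT2 had at most 3 counts each over all libraries, and GNAO1, GNAT1 and GNAT3 had none.

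GNAS encodes the Gs alpha subunit, which activates adenylyl cyclase, and its locus also gives rise to other transcripts from upstream promoters. It had 67, 41, 53 and 64 counts after shPTBP1 and 65, 59, 59 and 76 after shSCR. The means were 36.3 ± 6.97 and 41.4 ± 5.01 CPM, and the groups overlapped (log2 fold change -0.19, SE 0.15, edgeR adjusted p = 0.566). The long and short forms of the protein differ by an alternative exon of 45 bases, which is 15 codons. It is printed here in capitals after the 50 intron bases before it, because this is the well-known splicing choice within the family and its upstream intron holds both TCTT and CTCTCT, in overlapping positions.

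GNAS alternative exon, chr20:58898891-58898985, plus strand: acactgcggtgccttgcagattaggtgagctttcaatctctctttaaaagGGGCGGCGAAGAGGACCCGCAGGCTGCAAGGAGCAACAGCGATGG

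The exon itself spans chr20:58898941-58898985. Of the transcripts with a count whose exons lie on both sides, 9 include it and 8 skip it, and together they held 416 counts, 193 of them with the exon. The share that included it was 35.6%, 57.6%, 48.8% and 48.1% in shPTBP1 replicates 1 to 4 and 44.1%, 53.2%, 28 of 56 counts and 41.8% in shSCR replicates 1 to 4. The shPTBP1 libraries lay on both sides of the shSCR libraries. The means were 47.5% ± 9.04 and 47.3% ± 5.25 (SD, n = 4), a difference of 0.26 percentage points (two-sided exact permutation test over libraries, p = 1.00, with 0.0286 as the smallest value this design allows). Leaving out 1 library in turn moved the difference between -3.09, without shPTBP1 replicate 2, and 4.24, without shPTBP1 replicate 1. With 33 to 67 counts per library, a shift of a few percentage points was not detectable.

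The beta subunits form the 7-bladed propeller that binds the gamma subunit and docks on GDP-bound alpha. GNB1 had 16, 16, 15 and 14 counts after shPTBP1 and 12, 12, 13 and 15 after shSCR. The groups met at shPTBP1 replicate 4 and shSCR replicate 4, and the log2 fold change of 0.25 (SE 0.24) had an edgeR adjusted p of 0.669. GNB2 had 5, 2, 7 and 6 counts after shPTBP1 and 8, 7, 5 and 11 after shSCR. It was the single member that did not pass the filter, and its ratio of 0.654 had a 95% counting interval from 0.353 to 1.18. GNB4, outside the members, had 166 counts after shPTBP1 and 134 after shSCR, and its log2 fold change of 0.33 (SE 0.19) was not called (edgeR adjusted p = 0.394).

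GNB5, the divergent beta subunit that pairs with RGS proteins of the R7 family, had 185, 179, 193 and 175 counts after shPTBP1 and 169, 149, 128 and 140 after shSCR. Every shPTBP1 library was above every shSCR library in normalized CPM, which held for 12.7% of all genes tested. The means were 119 ± 6.24 and 93.5 ± 7.93 CPM, and GNB5 was called higher by a small step (log2 fold change 0.34, SE 0.09, adjusted p = 0.0353 by edgeR and p = 0.0286 by an exact permutation test). The exact p is unadjusted, is the smallest this design allows and follows from the lack of overlap. The edgeR call was close to the threshold. It was lost in 7 of the 8 fits with 1 library left out, where the adjusted p reached 0.118, and held without shSCR replicate 1 (0.0299). DESeq2 gave an adjusted p of 0.0959. Its partners were scarcely seen, since RGS6, RGS7 and RGS11 were at 0 and RGS9 had 3 counts in all.

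GNG5 encodes a small gamma subunit, the lipid-anchored partner of beta, and was by far the most abundant member. It had 576, 599, 606 and 584 counts after shPTBP1 and 629, 559, 554 and 602 after shSCR. The groups overlapped at 383 ± 16.8 and 375 ± 14.8 CPM, and the difference of 0.03 on the log2 scale (SE 0.06; adjusted p = 0.832 by edgeR) had a 95% interval from -0.09 to 0.15. This was the member whose level was known with the least error.

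GNG10, another gamma subunit gene outside the members, rose after shPTBP1. It had 403, 468, 481 and 514 counts after shPTBP1 and 325, 311, 357 and 304 after shSCR, without overlap. The means were 302 ± 32.7 and 208 ± 20.3 CPM (log2 fold change 0.54, SE 0.09, adjusted p = 0.00447 by edgeR and p = 0.0286 by an exact permutation test). The exact p, again unadjusted, follows from the lack of overlap, which 12.7% of all genes tested shared. GNG10 was called by edgeR in each of the 8 fits with 1 library left out. A readthrough gene on the same strand, DNAJC25-GNG10, shares its end, but held 7 to 22 counts per library. Adding the 2 genes gave 417 to 525 counts after shPTBP1 and 320 to 364 after shSCR, so the groups stayed apart. GNG7 had 20 counts after shPTBP1 and 26 after shSCR. GNG4 had 2 counts after shPTBP1, in replicate 4 alone, and 19 after shSCR, 10 of them in replicate 4 (ratio 0.107, 95% counting interval from 0.0120 to 0.442). GNG4 did not pass the filter, and in the fit without the filter it was not called (log2 fold change -2.95, edgeR adjusted p = 0.0826).

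Of the 9 members other than GNA11, 8 were tested and 0 were called by edgeR, beside 5.54% of all genes. None of the 8 had an unadjusted p under 0.05, where 19.2% of all genes tested did, and none was called by DESeq2, limma-voom or limma-trend. DESeq2 gave no adjusted p for GNAQ, GNAI2 and GNB1. The median log2 fold change of the 8 was -0.17, beside 0.00 for all genes tested, with 6 below 0 and 2 above. Over the 11 tested subunit genes other than GNA11, 2 were called higher, GNB5 and GNG10, and none lower, with a median of -0.07 and a range from -0.58 to 0.54. At an unadjusted p under 0.05 these counts were the same. A further 11 subunit genes had counts but did not pass the filter, 6 of them with at most 3 counts in all, and 10 subunit genes were at 0 in every library.

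**Figure D3:**
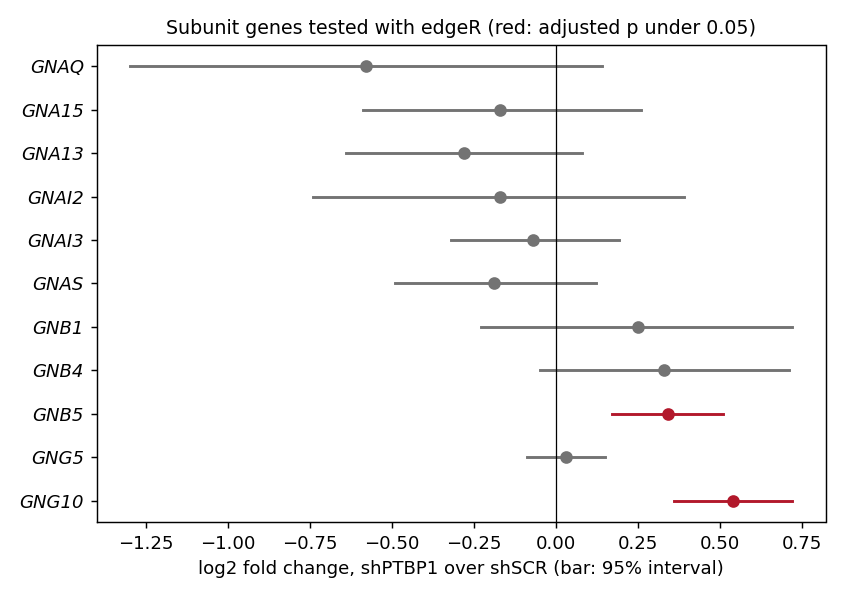
Log2 fold change of shPTBP1 over shSCR (horizontal axis) for the 11 subunit genes tested with edgeR other than GNA11, each a point with a bar for its 95% interval. The bars of GNB5 (0.34) and GNG10 (0.54), in red, lie to the right of 0, and the 9 others cross 0.

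Summed by role, beta subunit genes were at 153 to 172 CPM after shPTBP1 and 119 to 136 after shSCR. Gamma subunit genes were at 624 to 717 and 560 to 616. Neither pair of ranges overlapped, which held for 12.7% of single genes tested. The sums include GNB5 and GNG10, already without overlap by themselves, and a rise of either class was not tested. GNB5 was the largest part of the beta sum, at means of 119 and 93.5 CPM. GNG5, whose groups overlapped, was the largest part of the gamma sum, at 383 and 375 CPM, beside 302 and 208 for GNG10. The Gi genes GNAI1, GNAI2 and GNAI3 together were at 74.9 ± 5.61 and 79.9 ± 6.22 CPM, and the class of GNA12 and GNA13 at 19.6 ± 2.07 and 29.3 ± 8.43, in both cases with overlap.

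Levels of different members are compared as CPM per 1000 bases of the main isoform, within each group. After shPTBP1 GNG5 stood first at a mean of 475, followed by GNAS at 19.5, GNA15 at 13.3, GNAI3 at 6.74, GNAI2 at 6.30, GNB1 at 3.12, GNA13 at 3.06, GNA11 at 2.93, GNB2 at 1.94 and GNAQ at 1.13. After shSCR the order was GNG5 at 465, GNAS at 22.2, GNA15 at 14.9, GNAI2 at 7.12, GNAI3 at 7.06, GNA13 at 3.72, GNB2 at 2.97, GNB1 at 2.63, GNAQ at 1.69 and GNA11 at 0. In both groups the libraries of GNG5 lay above those of GNAS, and those of GNA15 above those of GNAI3. Among GNB1, GNA13, GNA11, GNB2 and GNAQ after shPTBP1, each overlapped its neighbour in the order. Division by length changes this order, since a long read can count a cDNA once whatever its length. In CPM without that division, over all 8 libraries, GNAI3 (mean 62.4) came before GNAS (38.9) and GNA15 (32.1), and its lowest library, at 50.9, was above the highest of GNA15, at 48.4. GNG5 came first on both scales. GNA11 had a main isoform with 62.9% GC, higher than that of 96.1% of the tested genes, whose median was 46.8%, while GNA15 and GNB2 (62.7% and 64.4%) were similar to it and GNAQ was at 40.8%.

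The counts also show which of the annotated isoforms the members used. In 4 members, GNAQ, GNA13, GNA15 and GNAI3, all counts fell on 1 isoform. GNAI3 has 1 annotated transcript, so no other outcome was possible for it, while GNAQ and GNA13 have 2 each and GNA15 has 3. Of the subunit genes, GNAS and GNB5 had more than 1 transcript past the filter, and 0 of their 5 transcripts were called by edgeR's diffSpliceDGE or by limma's diffSplice, beside 1.12% of 5464 transcripts over all genes with diffSpliceDGE. None of the 5 had an unadjusted p under 0.05 in diffSpliceDGE. GNAS-201, without the 45-base exon, held 35.5% ± 9.60 of the GNAS counts after shPTBP1 and 39.6% ± 6.13 after shSCR, and GNAS-210, which has the exon, 25.2% ± 8.27 and 25.0% ± 3.91. The main isoform of GNB5, GNB5-202, held 57.3% ± 3.80 and 54.6% ± 2.19.

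Among the 5 members other than GNA11 with more than 1 isoform, the share of the main isoform did not overlap between the groups in 2, GNAI2 and GNG5. Over the 6471 tested genes with more than 1 isoform and a count in every library, this held for 6.01%. GNAI2-202 held 19 of 20, 28 of 31, 18 of 19 and 14 of 16 GNAI2 counts after shPTBP1, and 13 of 15, 22 of 27, 29 of 34 and 17 of 22 after shSCR, which is 91.9% ± 3.63 and 82.7% ± 4.22. The groups were less than 1 percentage point apart at their nearest libraries (exact permutation test, p = 0.0286, the smallest this design allows and 1 of 5 such comparisons). GNG5-202 held 96.7% ± 0.737 and 98.0% ± 0.464 (exact permutation test, p = 0.0286). The difference lay largely in GNG5-205, a transcript without a defined coding sequence, with 1.82% ± 0.345 after shPTBP1 and 0.932% ± 0.166 after shSCR, named here after its values were seen. For GNAS-201, GNB1-201 and GNB2-201 the groups overlapped, and the exact p values of the shares lay between 0.343 and 0.686.

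Around the subunits, 141 genes of G-protein signalling were listed by role, of which 140 were found and 46 were tested. The median log2 fold change of the 46 was 0.08, with 26 above 0 and 20 below. By edgeR 1 gene was called lower and 0 higher, and at an unadjusted p under 0.05 there were 2 lower and 4 higher, 6 of 46 genes, beside 5.54% called and 19.2% at that unadjusted threshold over all genes. The called gene was GPSM3, a regulator that binds GDP-bound Gi alpha subunits, with 263, 226, 234 and 275 counts after shPTBP1 and 331, 342, 297 and 356 after shSCR. Its groups did not overlap, which held for 12.7% of all genes tested. It fell from 212 ± 13.8 to 161 ± 12.1 CPM (log2 fold change -0.39, SE 0.08, edgeR adjusted p = 0.0126). Without shPTBP1 replicate 3 its adjusted p was 0.0510. It was 1 of 10 tested among 27 regulators, such as RGS proteins, whose median was -0.13.

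At the gene level none of the other lists had a call by edgeR, DESeq2, limma-voom or limma-trend. Of 24 effectors, such as phospholipase C beta and adenylyl cyclase, 5 were tested, with a median of -0.26 and 0 at an unadjusted p under 0.05. No phospholipase C beta gene was among those tested. PLCB1, PLCB3 and PLCB4 had no count, and PLCB2, with 26 counts after shPTBP1 and 18 after shSCR, did not pass the filter. The effector with the highest mean count was PIK3CG, a phosphoinositide 3-kinase activated by beta-gamma, with a log2 fold change of -0.26 (edgeR adjusted p = 0.501). Of 26 genes downstream, such as protein kinases A and C, 13 were tested, with a median of 0.14. At an unadjusted p under 0.05, 2 of them were higher and 1 lower. RHOA, the most abundant and a target of the GNA13 pathway, reached 2035 ± 42.6 CPM with shPTBP1 and 1841 ± 67.4 with shSCR (log2 fold change 0.14, SE 0.05, edgeR adjusted p = 0.114). Its groups did not overlap, as in 12.7% of all genes tested. Of 7 receptor kinases and arrestins, which switch receptors off, 4 were tested, with a median of -0.04 and 0 at an unadjusted p under 0.05. GRK2, the most abundant of these, had a log2 fold change of -0.05 (edgeR adjusted p = 0.928). Of 56 receptors found, 14 were tested, 11 of them above 0 and 3 below, with a median of 0.16 and 2 higher at an unadjusted p under 0.05. CX3CR1, the fractalkine receptor and the most abundant of them, reached 59.1 ± 3.89 CPM with shPTBP1 and 49.1 ± 7.63 with shSCR (log2 fold change 0.26, SE 0.12, edgeR adjusted p = 0.259).

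In isoform usage, 24 transcripts of 11 genes of these lists were tested, and diffSpliceDGE called 1, ARHGEF1-203, beside 1.12% over all genes. ARHGEF1 encodes a RhoA exchange factor that acts downstream of GNA13. ARHGEF1-203 had 4, 1, 4 and 2 counts after shPTBP1 and 13, 21, 13 and 17 after shSCR, and its share of the gene fell from 55.8% ± 11.1 to 13.8% ± 4.08, without overlap (diffSpliceDGE in edgeR, adjusted p = 0.00984). ARHGEF1-219, the main isoform, held 80.7% ± 6.51 after shPTBP1 and 36.2% ± 7.15 after shSCR (adjusted p = 0.0971 in the same test). With limma's diffSplice both isoforms were called. Lack of overlap in the share of the main isoform held for 6.01% of 6471 tested genes with more than 1 isoform and a count in every library. The call of ARHGEF1-203 was lost without shPTBP1 replicate 4 (0.0649), without shSCR replicate 2 (0.0709) and with the replicate block (0.0655).

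**Figure D4:**
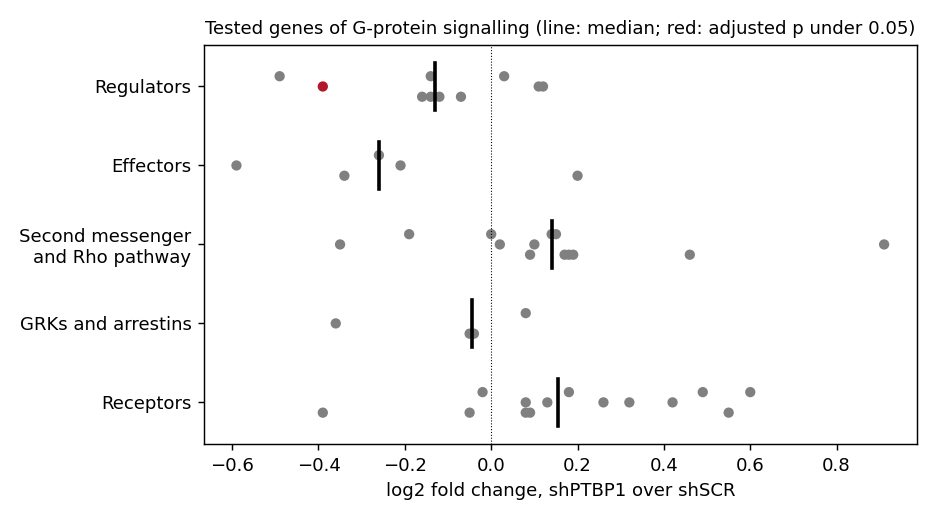
Log2 fold change of shPTBP1 over shSCR (horizontal axis) for each tested gene of the 5 signalling lists (rows), each gene as a point and the list median as a black line, with a called gene in red. GPSM3 at -0.39 is the red point, and each list has points on both sides of 0.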

How the data were processed

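The authors prepared nanopore cDNA libraries, aligned reads to hg38 with minimap2, kept those above a mapping quality of 50 and obtained transcript counts with StringTie. Tool versions and the annotation are not given in the sources used here. The deposited counts are whole numbers without normalization. A second deposited table, named TPM, holds CPM (count over library total, per 1000000, checked to within 1e-06), with no correction for length, and was used for alternatives only.

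Transcripts were assigned to genes by Ensembl identifier, without its version, in GENCODE 44 (GRCh38), which held 252562 of 254070. The 1508 others, 0.0876% to 0.115% of a library's counts, were left out. Groups and replicate numbers came from the sample labels. The members and lists were chosen with earlier results of these data known.

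Gene counts were tested with edgeR 4.0.16 (TMM, filterByExpr with minimum count 10, quasi-likelihood test, group only), with Benjamini-Hochberg adjustment over 7597 genes and a threshold of 0.05. CPM in the text is normalized by TMM. The SE was taken as the absolute log2 fold change over the square root of F, and 95% intervals are 1.96 SE on either side. Isoforms were tested with diffSpliceDGE (also a share change of at least 10 percentage points) and single values by two-sided exact permutation tests, whose smallest p is 0.0286. The edgeR gene and isoform tests were first tried on simulated counts with a fixed spread and no added dropouts. That trial does not cover genes with dropouts, and the alternatives were not tried in it. Counting intervals, and the limit of 3 counts for a count of 0, cover counting error only, since amplified cDNA reads are not independent molecules. Library totals were 1528449 to 1613342 counts.

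Named genes were PTBP1, the members, other subunit genes past the filter, called genes of the signalling lists or else the most abundant gene of a list, isoforms with a mean share of at least 10%, and the 5 genes most like GNA11 (log2 CPM, prior count 2). Others, among them subunit genes below the filter, were named after their values were seen. Alternatives were DESeq2 1.42.0, its size factors in edgeR, limma 3.58.1 (voom, trend with pseudocount 1 or 0.1, diffSplice), other filters, a replicate block and leaving out each library. Deviations of same-numbered libraries, over all genes tested, had correlations of -0.0328 to 0.00889, and the numbers were not treated as pairs. Such correlations cannot exclude a batch shared by libraries of the same number, so the replicate block was run as an alternative. R 4.3.3, Python 3.11.15 and scipy 1.17.1 were used. Strand use in counting is not given in the sources used here.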

Additional observations from a re-analysis of the deposited data

Results flagged for a closer look

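In 3 of 39 groups of 4 libraries, a single library lay far from the other 3, and chance alone would mark about 1 in 20 groups. GNA13 was at 22.4 normalized CPM in shPTBP1 replicate 4, with 17.7 to 18.5 in replicates 1 to 3. GNG10 was at 238 CPM in shSCR replicate 3 with 195 to 200 in the other replicates, still below the lowest shPTBP1 library at 255. PIK3CG was at 25.6 CPM in shPTBP1 replicate 4 with 29.7 to 30.4 in replicates 1 to 3.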

How the results depend on the processing

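The subunit genes other than GNA11 called higher, 2 in the reported fit, were 1 (GNG10) with DESeq2, with limma-trend at either pseudocount and with the replicate block, and 1 to 2 with 1 library left out. The number called lower, 0, became 1 (GNA12) without a filter on low counts. For the signalling lists the number called lower, 1, was 0 to 1 with 1 library left out, and 0 without shPTBP1 replicate 3. With the replicate block GNB5 had an edgeR adjusted p of 0.0673, GNG10 and GPSM3 kept their calls, no subunit isoform was called, the signalling isoform ARHGEF1-203 was not called (adjusted p 0.0655), and the difference in the GNAS exon share was 0.26 percentage points (exact test of the paired differences, smallest possible p 0.125). The exon share turned in direction in 4 of the 8 fits with 1 library left out, from -3.09 to 4.24 over all 8. Changes of sign also occurred in genes that were not called: with 1 library left out the log2 fold change ran from -0.30 to 0.05 (without shSCR replicate 2) for GNA15, from -0.41 to 0.05 (without shSCR replicate 3) for GNAI2 and from -0.14 to 0.01 (without shPTBP1 replicate 2 or shSCR replicate 1) for GNAI3, and GNG5 was at -0.01 with limma-trend at either pseudocount. The causes were not tested. The number of all genes called ranged from 184, without shPTBP1 replicate 3, to 495, without a filter, beside 421. GNG10 was called under each alternative run. ARHGEF1-203 and ARHGEF1-219 were called by limma's diffSplice. ARHGEF1-203 did not enter the test at a mean of at least 10 counts per transcript. Depth limits GNA11, GNB1, GNB2, GNAI2 and GNAQ most, with at most 34 counts in any library.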

Other observations

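A retained-intron transcript of GNAS, GNAS-231, had 1, 3, 4 and 1 counts in the shPTBP1 libraries and 0 in each shSCR library, while all retained-intron transcripts of GNAS together had 33 and 23 counts, from 4 to 12 and from 3 to 13 per library. GNAS-231 was picked after its values were seen. ARRB1, an arrestin, had 2, 41, 27 and 27 counts after shPTBP1 and 50, 34, 4 and 6 after shSCR, and PDE4A, a cyclic AMP phosphodiesterase, 19, 11, 0 and 17 after shPTBP1 and 1, 0, 0 and 24 after shSCR. These genes, also picked after their values were seen, differed more within each group than between the groups.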
